A study of Mus musculus with 4 samples.

Results

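The small leucine-rich proteoglycans are secreted matrix proteins built on leucine-rich repeats, most of which carry chondroitin, dermatan or keratan sulfate chains. They coat collagen fibrils and set their spacing, and several of them bind TGF-β family ligands or cell surface receptors. In connective tissue they come mainly from fibroblasts and related mesenchymal cells, and decorin is best known for restraining TGF-β and several growth factor receptors. The RNA of 8 genes of the family was examined in 4 mouse mammary tumor cell lines: the class I genes Dcn (decorin), Bgn (biglycan) and Aspn (asporin), the class II genes Lum (lumican), Fmod (fibromodulin) and Prelp (prolargin), and the class III genes Epyc (epiphycan) and Ogn (osteoglycin, also called mimecan). The 8 were picked by gene symbol from the 38713 genes of the deposited table. They were picked with the JNK_KO against JNK_WT values of this table already known, above all those of Dcn, so their levels and differences are given as a description with no test.

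The JNK_WT lines (n = 2, lines 1 and 2) were grown from mammary tumors of Wap-Cre+/- Trp53 LoxP/LoxP mice. The JNK_KO lines (n = 2, lines 1 and 3) came from tumors of mice that in addition were homozygous for floxed Mapk8 and Mapk9, which encode the kinases JNK1 and JNK2. All donors were parous C57BL/6 females, and the lines of both groups are labelled p53-/-. The Wap promoter drives Cre in luminal epithelial cells during lactation, so the deletions are directed to the epithelium of the gland. Each line was made from 1 tumor and gave 1 library. The spread between libraries of a group thus holds differences between tumors, cultures and library preparations together. A feature of a single tumor or line cannot be told apart from a feature of its genotype with so few lines.

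Expression was given as FPKM, which scale mapped fragments by transcript length and by the fragments mapped in the library. This scale corrects for gene length and lets levels of different genes be set side by side. Differences between groups are differences of mean log2(FPKM + 1), which understate the change of genes with low values. The targeted gene Mapk8 was at 23.9 and 19.1 FPKM in the JNK_WT lines and at 4.30 and 4.27 in the JNK_KO lines, and Mapk9 was at 29.7 and 24.3 against 12.6 and 8.66, so both were lower in the lines labelled JNK_KO. Trp53, which was floxed in all donors, had 1.55 and 4.15 FPKM in the JNK_WT lines and 5.72 and 4.28 in the JNK_KO lines. Whether reads of these floxed genes, Mapk8 and Mapk9 in the JNK_KO lines included, lie outside the deleted exons cannot be read from FPKM. The paper reports that immunoblots detected no JNK in JNK_KO tumor cells. A total of 12998 genes had at least 1 FPKM in at least 2 libraries and were tested. Their median difference was 0.01, and the median absolute difference between the 2 lines of a group was 0.43 in JNK_WT and 0.33 in JNK_KO. Of the members, 4 passed this filter (Dcn, Bgn, Prelp and Ogn) and 4 did not (Aspn, Lum, Fmod and Epyc). A member could pass through a single group in which it is high, so the 4 that passed are not a sample of the family.

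The lines differed in which proteoglycan dominated. The FPKM of the 8 members summed to 91.8 and 2.19 in JNK_WT lines 1 and 2 and to 96.6 and 181 in JNK_KO lines 1 and 3. In JNK_WT line 1 biglycan made up 92.8% of this sum, and in JNK_WT line 2 it made up 51.5% of a far smaller one. In the JNK_KO lines decorin made up 82.6% and 89.2%. JNK_WT line 2 had almost no RNA of the family, with 1 member at 1 FPKM or more, against 2 in JNK_WT line 1, 4 in JNK_KO line 1 and 3 in JNK_KO line 3. The summed level therefore did not separate the genotypes in the way that decorin alone did, since JNK_WT line 1 and JNK_KO line 1 lay side by side.

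**Figure D1:**
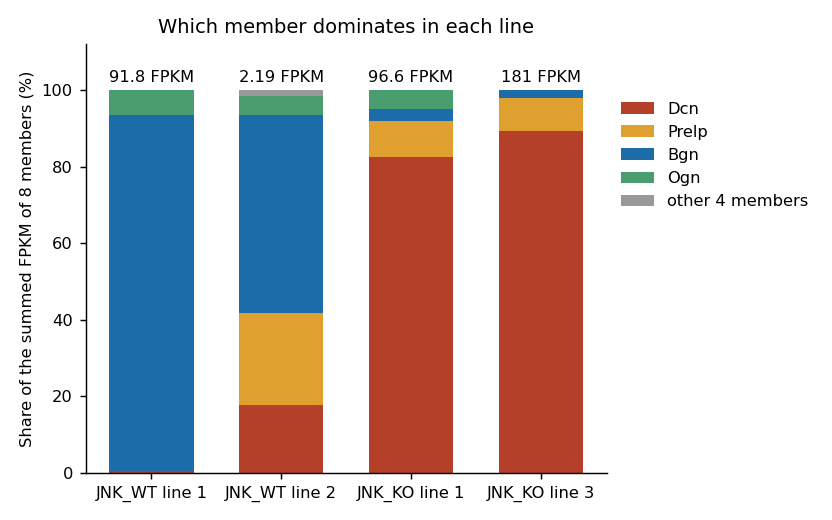
Share (%) of the summed FPKM of the 8 members taken by each of them in each cell line, 1 library per bar, with the sum in FPKM printed above the bar. Biglycan takes 92.8% in JNK_WT line 1 and decorin 82.6% and 89.2% in the JNK_KO lines.

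Dcn (ENSMUSG00000019929.16, chr10:97479609-97518143 of GRCm38, plus strand) had 0.430 and 0.389 FPKM in JNK_WT lines 1 and 2 and at 79.7 and 162 FPKM in JNK_KO lines 1 and 3. The groups did not overlap: the lower JNK_KO line stood 185 times above the higher JNK_WT line, while the JNK_WT lines were almost equal and the JNK_KO lines differed 2.03-fold. The mean was 0.409 ± 0.0293 FPKM in JNK_WT and 120.7 ± 57.9 FPKM in JNK_KO (SD, n = 2 each), a ratio of 295 and a log2 difference of 6.35. Within each library, 3.97% and 3.69% of the tested genes lay below Dcn in the JNK_WT lines and 90.2% and 95.6% in the JNK_KO lines, so its RNA lay near the bottom of the expressed range in the former and near the top in the latter. Its low values in JNK_WT were not zeros: they correspond to about 34.3 and 37.5 reads at the length of its longest coding transcript, and to 4.96 and 5.42 at that of its shortest. These numbers were estimated from the steps in which low FPKM values move, and they are approximate.

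Dcn had the third highest difference of the 12998 tested genes. Only 4 genes of the whole table were under 1 FPKM in both JNK_WT lines and at 50 FPKM or more in both JNK_KO lines. The other 3 of these, named after their values were seen, were the small RNA genes Mir23a, Snord98 and Snord110, each listed at 0 in both JNK_WT lines, and FPKM of such short genes rest on very few reads. With the limit for JNK_KO lowered to 5 FPKM the number was 59 genes, and 10 genes had the opposite pattern.

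Prelp, a class II member that anchors basement membranes to the underlying connective tissue, was the only other member that was higher in both JNK_KO lines among those that passed the filter. It was at 0.122 and 0.527 FPKM in JNK_WT lines 1 and 2 and at 8.96 and 15.7 FPKM in JNK_KO lines 1 and 3. As with Dcn, line 3 was the higher of the JNK_KO lines (1.75-fold), and the lowest JNK_KO value was 17.0 times the highest JNK_WT value. Means were 0.324 ± 0.286 FPKM in JNK_WT and 12.3 ± 4.76 FPKM in JNK_KO (SD, n = 2 each), a ratio of 38.0 and a log2 difference of 3.30, which ranked 85 among the tested genes. Prelp reached the middle of the expressed range in JNK_KO, with 39.3% and 53.4% of tested genes below it. An antisense gene, Gm15851, overlaps Prelp on chromosome 1 and the libraries were not stated to keep strand. It was listed at 0 in both JNK_WT lines and at 0.132 and 0.345 FPKM in the JNK_KO lines, small beside Prelp itself.

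Bgn, the closest relative of decorin and a ligand of Toll-like receptors when it is released from the matrix, was high in 1 line. It was at 85.1 FPKM in JNK_WT line 1, 1.13 in JNK_WT line 2, 3.09 in JNK_KO line 1 and 3.72 in JNK_KO line 3. The JNK_WT lines thus lay 75.6-fold apart, on either side of the JNK_KO lines, which were close to each other. On the log2 scale the JNK_WT lines were 5.34 apart, and 0.446% of the tested genes were further apart between these lines. The group means were 43.1 ± 59.4 FPKM in JNK_WT and 3.41 ± 0.441 FPKM in JNK_KO (SD, n = 2 each), and the log2 difference of −1.62 rests on JNK_WT line 1, since without that line it was 1.05.

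Ogn, a class III member with a part in collagen fibril assembly, was higher in 1 line of each genotype than in the other. It was at 6.03 FPKM in JNK_WT line 1, 0.112 in JNK_WT line 2, 4.68 in JNK_KO line 1 and 0.143 in JNK_KO line 3. Even in JNK_WT line 1 and JNK_KO line 1, only 31.2% and 24.6% of tested genes lay below it. The JNK_WT lines differed 54.0-fold and the JNK_KO lines 32.7-fold, and 3.11% and 2.24% of tested genes were further apart within these pairs. The log2 difference between genotypes was −0.13, against 2.66 for the JNK_WT lines and 2.31 for the JNK_KO lines. Ogn lies within the span of Cenpp, a kinetochore gene on the opposite strand, so reads of the pair could be exchanged. Cenpp was at 6.21, 9.17, 8.08 and 6.53 FPKM in JNK_WT lines 1 and 2 and JNK_KO lines 1 and 3, so it did not follow the order of Ogn.

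The other 4 members stayed under 0.06 FPKM in every library. Aspn was at 0.0507 and 0.0339 FPKM in the JNK_WT lines and at 0.0320 and 0.0228 in the JNK_KO lines, or about 5.4, 4.3, 3.2 and 3.4 reads, with both JNK_KO lines below both JNK_WT lines. Fmod was at 0.00645 and 0 FPKM in the JNK_WT lines and at 0.0481 and 0.0147 in the JNK_KO lines, in the latter about 6.4 and 2.9 reads at the longest coding transcript and 1.1 and 0.50 at the shortest. Lum, known for its part in the collagen fibrils of the cornea, was listed at 0 in 3 libraries and at 0.00840 FPKM in JNK_KO line 3. Epyc, a cartilage gene, was at 0.0133 and 0 FPKM in the JNK_WT lines and at 0.0283 and 0 in the JNK_KO lines. At this depth no difference in these 4 genes was detectable. In all, 2 of the 4 members that passed the filter had both JNK_KO lines above both JNK_WT lines, and none had both below. Of all 12998 tested genes, 18.3% had the first order and 16.7% the second, and since the members were chosen on this contrast nothing is read from their count.

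**Figure D2:**
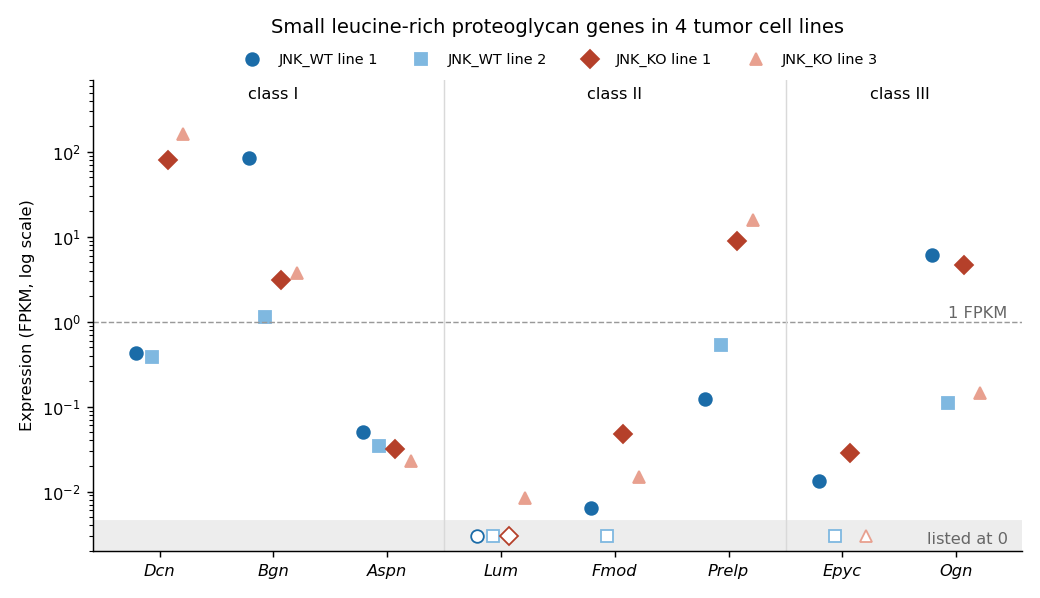
Expression of each member (FPKM, log axis) in each cell line, 1 point per library, with class I genes on the left, class II in the middle and class III on the right. Open symbols in the grey band are values listed at 0, and the dashed line marks 1 FPKM. Dcn and Prelp separate the genotypes, while Bgn (85.1 FPKM in JNK_WT line 1) and Ogn (6.03 and 4.68 FPKM in the lines numbered 1) separate lines of the same genotype.

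When both kinds of difference are plotted for every tested gene, the 4 members fall into separate regions. Dcn was far up on the axis of genotype (6.35) and close to 0 on that of the JNK_WT lines (0.04), with a difference of −1.01 between JNK_KO lines 1 and 3. Prelp had the same arrangement at a lower level, with −0.44 for the JNK_WT lines and −0.74 for the JNK_KO lines. Bgn and Ogn lay further out along the axes of lines than along the axis of genotype, Bgn between the JNK_WT lines only (−0.20 between the JNK_KO lines) and Ogn between both pairs.

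**Figure D3:**
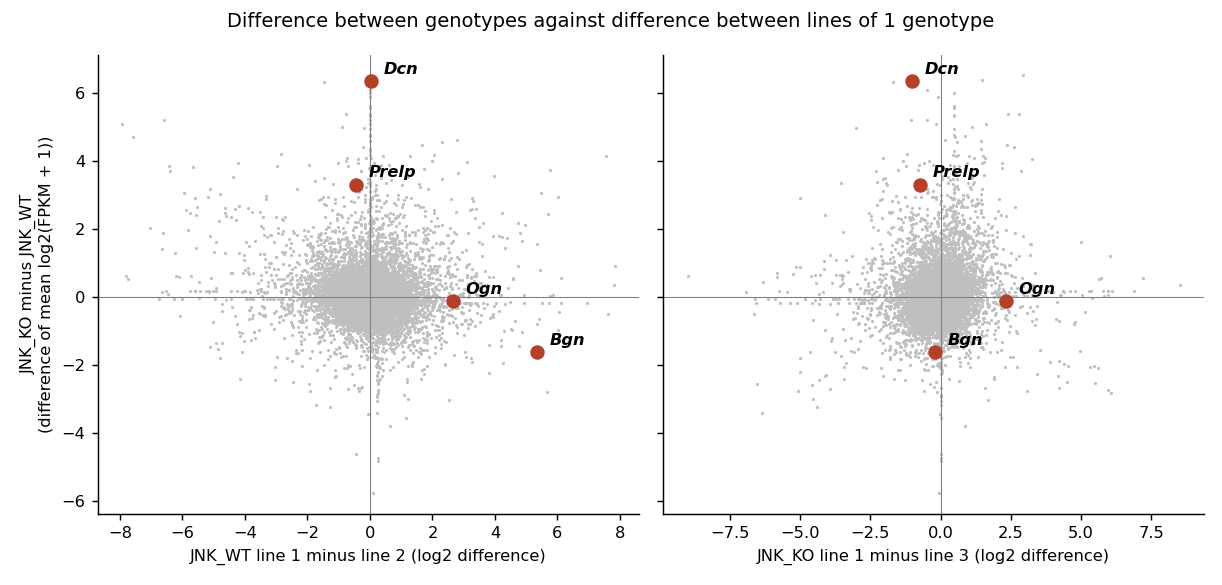
Difference between genotypes (JNK_KO minus JNK_WT, mean log2(FPKM + 1), vertical) against the difference of the 2 lines of 1 genotype, JNK_WT on the left and JNK_KO on the right, 1 grey point per tested gene (n = 12998), with the 4 members that passed the filter in red. Dcn (6.35) and Prelp (3.30) are high on the vertical axis and Bgn (5.34) and Ogn (2.66) are far to the right on the left panel.

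Most of these genes lie in small clusters of related genes, and their neighbors were compared with them. On chromosome 10, Dcn, Lum, Kera (keratocan) and Epyc lie within 202.85 kb. Kera was listed at 0 in 3 libraries and at 0.0536 FPKM in JNK_KO line 1, and the other coding genes within 500 kb of the cluster that had a value, Ccer1 and C030005K15Rik, were also under 1 FPKM in every line. Dcn was thus the sole coding gene of its neighborhood with an appreciable level. On chromosome 1, 11 coding genes near Prelp (chr1:133910304-133921414, minus strand) and Fmod (chr1:134037254-134048277, plus strand) passed the filter besides Prelp, and their differences ran from −0.86 to 0.16 with a median of −0.14. None had both JNK_KO lines above both JNK_WT lines, where Prelp differed by 3.30.

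On chromosome 13, the 7 tested coding genes around Aspn (chr13:49544443-49567565) and Ogn (chr13:49608046-49624501, both plus strand) differed between genotypes by −0.33 to 0.05. Omd (osteomodulin), a keratan sulfate proteoglycan that sits between Aspn and Ogn, was at 0.0502 and 0.0700 FPKM in the JNK_WT lines and at 0.334 and 0.0249 in the JNK_KO lines, so it stayed low in the 2 lines with the higher Ogn values. Around Bgn (chrX:73483602-73495933, plus strand) 15 other coding genes were tested, with differences from −0.21 to 0.84, and 6 of them had both JNK_KO lines above both JNK_WT lines and 0 both below, beside 18.3% and 16.7% of all tested genes. Pnck, a calmodulin-dependent kinase gene, is a neighbor that did not pass the filter and was picked out after its values were seen. It had its highest value in the same line as Bgn, at 4.05 FPKM in JNK_WT line 1 against 0.257, 0.455 and 0.369 in the other lines.

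**Figure D4:**
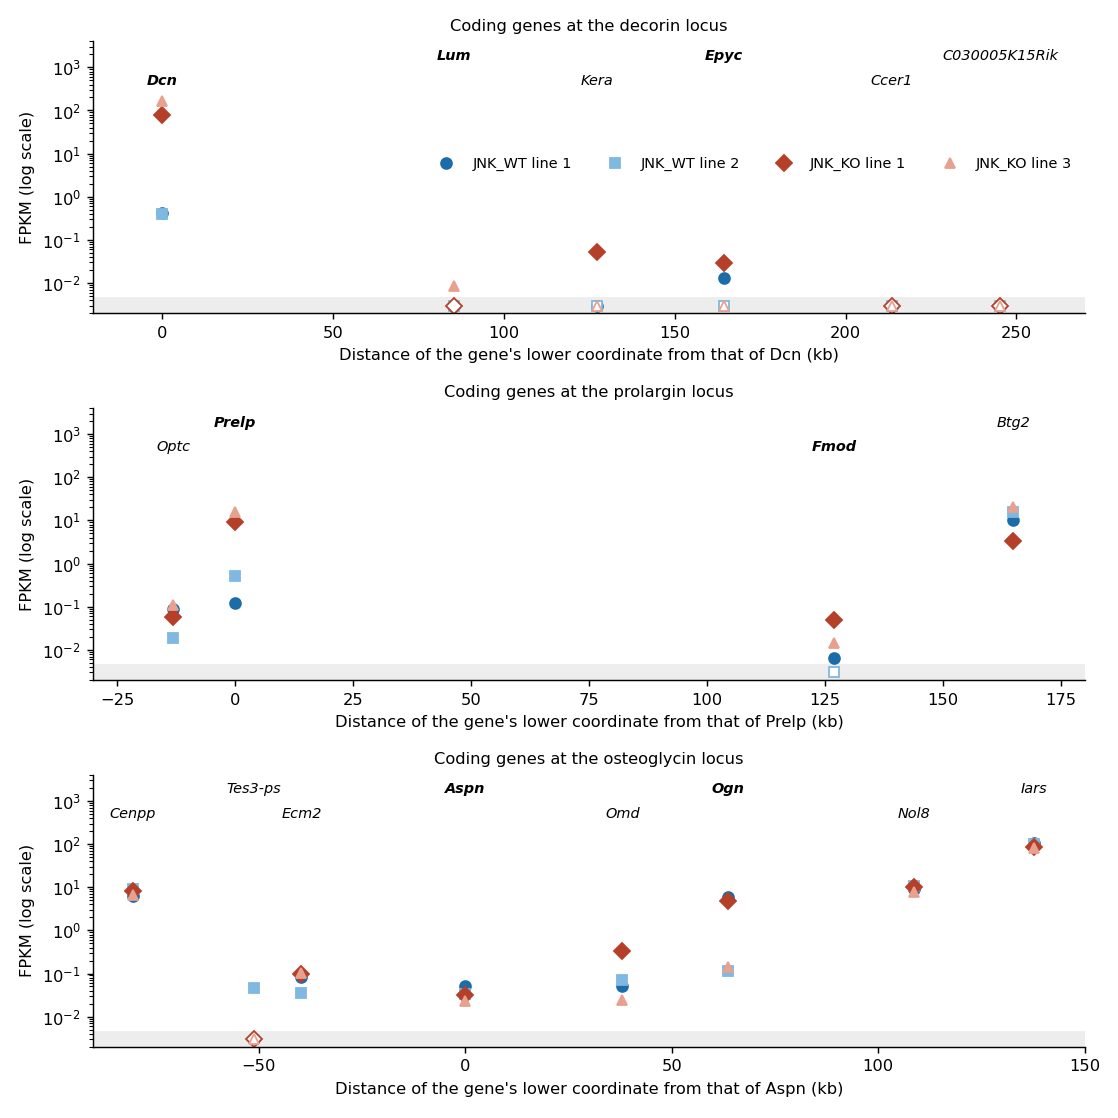
Expression (FPKM, log axis) of the annotated coding genes around Dcn, Prelp and Aspn against the distance (kb) of each gene from that member, 1 point per library, open symbols in the grey band being values listed at 0. Members are in bold, and points with equal values cover each other. Dcn at 79.7 and 162 FPKM in the JNK_KO lines stands alone at its locus, and Cenpp, which spans Aspn and Ogn, and Nol8 beyond Ogn vary little across the 4 lines.

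The set of RefSeq promoters used here held no entry for Dcn or Lum. Those of Prelp, Bgn and Ogn, the other members that passed the filter, are printed because these genes had different patterns over the lines. Each is the 250 bases before the start on GRCm38.p6, 5′ to 3′ along the gene, with a GC box (GGGCGG, either strand) or a TATA box (TATAAA, either strand) in capitals. No match to the AP-1 site (TGANTCA, either strand), the element bound by the JNK target c-Jun and its partners, was found in these 3 windows, nor in those of Aspn, Fmod and Epyc. Among all 32851 windows of this length, 6.75% hold an AP-1 match, 32.7% a GC box and 12.4% a TATA box, so the absence of an AP-1 match is common and says only that these letters are not in the window. The sequences are those of Prelp (chr1:133921402-133921651, minus strand), Bgn (chrX:73483351-73483600, plus strand) and Ogn (chr13:49607765-49608014, plus strand).
Prelp: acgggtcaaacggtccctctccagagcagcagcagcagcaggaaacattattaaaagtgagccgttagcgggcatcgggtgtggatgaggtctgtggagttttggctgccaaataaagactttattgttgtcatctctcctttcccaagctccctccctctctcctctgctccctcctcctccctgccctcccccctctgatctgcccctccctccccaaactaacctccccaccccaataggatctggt
Bgn: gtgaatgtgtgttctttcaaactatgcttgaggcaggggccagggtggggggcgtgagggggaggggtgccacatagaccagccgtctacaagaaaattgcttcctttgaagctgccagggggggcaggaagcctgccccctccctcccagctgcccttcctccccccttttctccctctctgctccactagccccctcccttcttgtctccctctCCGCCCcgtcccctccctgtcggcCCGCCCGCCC
Ogn: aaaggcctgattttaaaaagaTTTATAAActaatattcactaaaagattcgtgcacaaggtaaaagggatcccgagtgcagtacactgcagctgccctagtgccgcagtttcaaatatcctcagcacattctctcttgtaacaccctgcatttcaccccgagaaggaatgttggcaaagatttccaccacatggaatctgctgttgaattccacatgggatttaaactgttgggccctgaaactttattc

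The Bgn window ends in a run with 3 GC boxes, 2 of them overlapping, at 34, 10 and 6 bases before the start, and 64.4% of its bases are G or C. Prelp had 55.6% and no match to any of the 3 motifs, and Ogn had 42% and a pair of overlapping TATA matches 229 and 227 bases before the start. The median over all windows was 52.4%. The RefSeq start of Ogn lies upstream of its start in GENCODE M21, and the bases just after it were not found in a transcript of that annotation, so the Ogn positions hold for the RefSeq start only. These are matches of letters, not mapped sites.

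The genes whose values were most like those of Dcn were ranked by the distance over the 4 libraries on the log2(FPKM + 1) scale, among 12508 genes that passed the filter. A smaller distance means closer values in all lines. The nearest gene was Gm12897 (distance 1.28), at 0 and 1.80 FPKM in the JNK_WT lines and at 73.2 and 240 in the JNK_KO lines. It was followed by 3 miRNA precursor rows (mmu-mir-7067, mmu-mir-6955 and mmu-mir-6943) that were listed at 0 in both JNK_WT lines and whose lengths are not known here, so the limit on exon length was not applied to them. The nearest annotated coding genes were Ntn1 (netrin-1, distance 2.54), Ifi27l2a (2.64), Gata3 (2.69), Vnn1 (2.72) and H2-Q6 (2.84), and AL590625.1 (2.92), also of unknown length, closed the list of 10. Ntn1 was at 1.16 and 1.38 FPKM in the JNK_WT lines and at 17.9 and 76.9 in the JNK_KO lines, and Gata3, a transcription factor of the luminal lineage, was at 1.79 and 1.18 against 31.6 and 38.6. Dcn and Prelp were 4.48 apart on this measure, so their likeness is in the order of the groups and of the JNK_KO lines, and not in level or in the order of the JNK_WT lines.

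The values of Prelp were matched more closely, by Fcgbp (distance 0.69), Sirpa (0.77) and Clca2 (0.79). Sirpa, an inhibitory receptor gene best known from myeloid cells, was at 0.309 and 0.354 FPKM in the JNK_WT lines and at 13.8 and 11.4 in the JNK_KO lines. Those nearest to Ogn were Scrn1 (0.43), Loxl1 (0.44) and Sema7a (0.50). Loxl1, an enzyme gene of elastic fiber cross-linking, was at 4.82, 0.191, 3.58 and 0.252 FPKM in JNK_WT lines 1 and 2 and JNK_KO lines 1 and 3, the order of Ogn. Those nearest to Bgn were AA465934 (1.34), Igf2bp3 (1.37) and AA467197 (1.57), all high in JNK_WT line 1 only. AA467197 was at 206 FPKM there and at 3.02 to 3.40 in the other 3 lines.

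The genes that build, bind and cleave these proteoglycans were then taken by list. For them the difference was tested with limma on all 12998 genes, with Benjamini-Hochberg adjustment. By limma, 0 genes of the table (0%) were called at an adjusted p under 0.05 with an absolute log2 difference over 0.75, and 992 had an unadjusted p under 0.05. None of the genes named below therefore passed the test, and their values are given as measured. The smallest adjusted p among them was 0.0903, that of Gata3. Counts of genes whose groups do not overlap are to be read beside the 18.3% and 16.7% of all tested genes.

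Of the 10 other genes of the family, 3 were tested and 1 had both JNK_KO lines above both JNK_WT lines, with a median difference of 0.47. That gene was Podnl1 (podocan-like 1), at 1.26 and 0.0308 FPKM in the JNK_WT lines and at 6.42 and 3.10 in the JNK_KO lines, a log2 difference of 1.85 (limma adjusted p = 0.519). Tsku (tsukushi), a secreted BMP inhibitor, ran across the groups, at 20.0 and 2.64 FPKM in the JNK_WT lines and 9.80 and 7.26 in the JNK_KO lines. Chadl, a chondroadherin-like collagen binder, was between 1.35 and 3.57 FPKM in all lines. The other 7 genes, Kera, Omd and Podn among them, did not pass the filter.

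Decorin and biglycan carry chondroitin or dermatan sulfate, and between 13 and 17 of 22 genes for the synthesis of these chains reached 1 FPKM in each line. Of the 16 that were tested, 3 had both JNK_KO lines above and 2 both below, with a median of 0.06. The largest difference was that of Chst11, a chondroitin 4-O-sulfotransferase, at 0.681 and 0.261 FPKM in the JNK_WT lines and at 5.27 and 3.34 in the JNK_KO lines (log2 difference 1.84, SE 0.37, limma adjusted p = 0.328). Chst12 and Chst13, sulfotransferases of the same family, differed by 1.01 and 0.86. Fibromodulin, lumican and keratocan carry keratan sulfate instead. Of 8 tested genes of its synthesis 3 had both JNK_KO lines above and 0 both below, with a median of 0.42. Chst1, a keratan sulfate sulfotransferase, was at 2.64 and 0.134 FPKM in the JNK_WT lines and at 16.7 and 8.23 in the JNK_KO lines (log2 difference 2.66, limma adjusted p = 0.458). Chst2 ran the other way, at 2.50 and 16.9 against 0.984 and 2.65 FPKM, with overlap of the groups, and St3gal1 differed by 0.91.

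Among the collagens and fibril partners that these proteoglycans bind, 13 of 20 genes with a value were tested, 7 had both JNK_KO lines above and 1 both below, and the median difference was 1.01. Col6a1 and Col6a2 encode chains of collagen VI, a microfibril that decorin and biglycan bind. Col6a2 was at 0.425 and 0.982 FPKM in the JNK_WT lines and at 21.7 and 14.1 in the JNK_KO lines (log2 difference 3.46, limma adjusted p = 0.144). Col6a1 was at 2.51 and 5.33 against 31.8 and 38.9 (log2 difference 2.94, limma adjusted p = 0.191). Eln (elastin) was at 0.170 and 0.468 against 2.95 and 9.53 (log2 difference 2.30, limma adjusted p = 0.435). The chains of collagen I and III, the main fibrils that decorin coats, had little RNA in most lines. Col1a1 was between 0.374 and 0.527 FPKM in all 4 lines. Col3a1 was at most 1.33 FPKM, and Col1a2 was at 10.3 FPKM in JNK_WT line 1 and between 0.374 and 2.56 elsewhere.

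Of the other extracellular proteoglycans 7 were tested, 1 had both JNK_KO lines above and 1 both below, with a median of 0.14. Srgn (serglycin), a proteoglycan of secretory granules, was at 0.215 and 0.0621 FPKM in the JNK_WT lines and at 4.76 and 20.3 in the JNK_KO lines (log2 difference 3.29, limma adjusted p = 0.358). Col18a1, a basement membrane collagen with heparan sulfate chains, was at 219 and 126.6 against 63.3 and 52.2 FPKM (log2 difference −1.52, limma adjusted p = 0.396). Acan (aggrecan) overlapped between the groups, with 21.8 FPKM in JNK_WT line 2.

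Among 13 tested TGF-β family ligands and receptors, 4 had both JNK_KO lines above and 1 both below, with a median of 0.27. Bmp2 was at 0.0694 and 1.31 FPKM in the JNK_WT lines and at 12.2 and 7.65 in the JNK_KO lines (log2 difference 2.76, limma adjusted p = 0.295). Tgfb2 was at 1.19 and 0.828 against 8.45 and 4.68 (log2 difference 1.87, limma adjusted p = 0.347), and Bmp4 differed by 1.62. Tgfb1, the ligand that decorin is best known to bind and a gene chosen after its values were seen, was at 22.8 and 48.0 FPKM in the JNK_WT lines and at 32.9 and 19.8 in the JNK_KO lines, with overlap of the groups.

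Of the 10 tested receptors that have been reported to bind decorin or biglycan, 2 had both JNK_KO lines above and 1 both below, with a median of 0.11. Tlr2, which biglycan engages, was at 1.62 and 4.40 FPKM in the JNK_WT lines and at 13.3 and 27.5 in the JNK_KO lines (log2 difference 2.42, limma adjusted p = 0.401). Tlr4, also on this list, differed by 1.23 without overlap, and the co-receptor Cd14 by 1.27 with overlap. Egfr and Met, the growth factor receptors that decorin binds, which were chosen after their values were seen, differed by −0.02 and 0.14.

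Of the 9 tested proteases that cleave members of the family, 4 had both JNK_KO lines above and 0 both below, with a median of 0.30. Mmp3 (stromelysin-1) was at 2.09 and 8.15 FPKM in the JNK_WT lines and at 51.2 and 28.7 in the JNK_KO lines (log2 difference 2.89, limma adjusted p = 0.378). Mmp13 and the aggrecanase gene Adamts5 differed by 2.16 and 2.10 (limma adjusted p = 0.299 and 0.378).

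**Figure D5:**
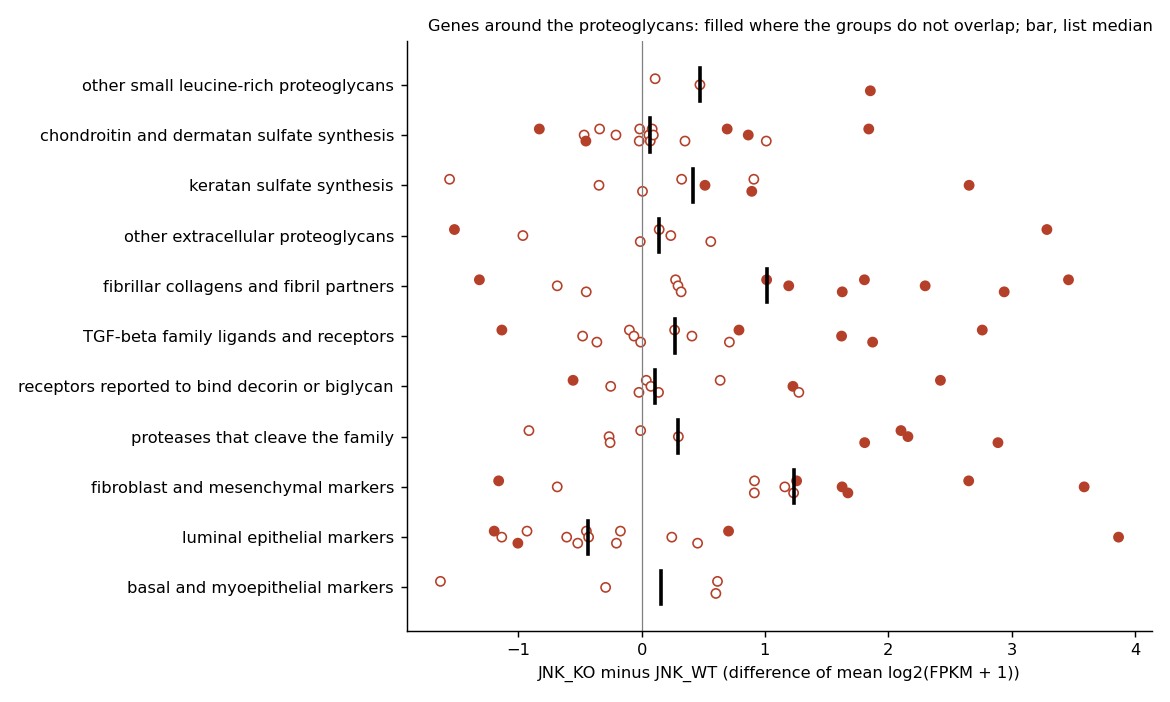
Difference between genotypes (JNK_KO minus JNK_WT, mean log2(FPKM + 1)) of each tested gene in the lists with at least 3 tested genes, 1 point per gene, filled where the 2 groups do not overlap and open where they do, with a black bar at the median of the list. The medians run from −0.44 for luminal epithelial markers to 1.23 for fibroblast and mesenchymal markers, and no point passed the adjusted threshold.

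Since members of the family are mostly made by mesenchymal cells, the lines were checked against cell type markers. All lines had RNA of luminal epithelial genes: 14 of 14 were tested, and 13 or 14 reached 1 FPKM in each line. Their summed level was 3267 to 4138 FPKM in JNK_WT and 1407 to 2947 in JNK_KO. Krt8 was at 1045 and 564 against 278 and 526 FPKM. The median difference of that list was −0.44, with Gata3 at 3.87 and Epcam at −1.19. Of 17 fibroblast and mesenchymal markers 11 were tested, 5 had both JNK_KO lines above and 1 both below, and the median difference was 1.23. Their summed level was 100 to 401 FPKM in JNK_WT and 287 to 612 in JNK_KO, so the groups overlapped. The largest single part was Vim (vimentin), at 331 and 47.2 FPKM in the JNK_WT lines and at 500.4 and 159 in the JNK_KO lines. None of these markers was at 0 in all lines.

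The 5 fibroblast and mesenchymal markers with the group order of Dcn and Prelp were Pdgfra, Pdgfrb, Cd34, Fbln1 and Zeb1, the last 2 named after their values were seen. Pdgfra was at 0.325 and 0.183 FPKM in the JNK_WT lines and at 24.7 and 7.82 in the JNK_KO lines (log2 difference 3.59, limma adjusted p = 0.252), Pdgfrb was at 0.0404 and 0.194 against 2.17 and 2.99 (1.67, limma adjusted p = 0.299), and Cd34 differed by 2.65. Of these 5, Pdgfrb was highest in JNK_KO line 3, as Dcn was, and the other 4 were highest in JNK_KO line 1. Twist1, named after its values were seen, was the 1 marker with both JNK_KO lines below, at 28.4 and 35.9 FPKM against 23.9 and 7.73, and Col1a2 differed by −0.68 with overlap. Lox and Postn, named on the same basis, overlapped between the groups and were highest in JNK_KO line 3, at 63.8 and 25.6 FPKM. The fibroblast collagen genes Col1a1 and Col3a1 stayed at or under 1.33 FPKM in every line. Whether a change in the share of mesenchymal cells has a part in the Dcn or Prelp values was not tested, and in bulk RNA fewer cells with a transcript and less transcript per cell cannot be told apart.

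The basal keratin Krt14 split the lines in another way. It was at 7.34 and 443 FPKM in the JNK_WT lines and at 26.7 and 313 in the JNK_KO lines, so it was high in JNK_WT line 2 and JNK_KO line 3, the 2 lines in which Ogn was low. Krt17 and Trp63, the latter named after its values were seen, were also higher in these 2 lines than in the other line of their genotype. Krt17 was at 10.99 and 201.8 FPKM in the JNK_WT lines and at 8.14 and 26.7 in the JNK_KO lines. Trp63 was at 0.0706 and 21.9 against 1.16 and 6.58 FPKM. Other basal markers did not all follow this split. Krt5 was at 61.9 FPKM in JNK_WT line 2 and at most 0.205 elsewhere. Acta2 was at 7.36 and 3.19 FPKM in the JNK_WT lines and at 1.70 and 29.0 in the JNK_KO lines. Of the 8 basal and myoepithelial markers 4 were tested, with 0 outside overlap and a median of 0.16, and their summed level was 26.1 and 734 FPKM in the JNK_WT lines and 38.3 and 376 in the JNK_KO lines. The part of basal cells in the Ogn values was not tested. Of 7 leukocyte markers with a value only Cd68 was tested, and Tyrobp was listed at 0 throughout. Of 8 endothelial and pericyte markers only Mcam was tested (log2 difference −1.41, limma adjusted p = 0.376), and of 5 adipocyte markers none was, with Plin1 and Lep at 0.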

How the data were processed

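RNA was measured in 4 cultured mammary tumor cell lines, 2 JNK_WT and 2 JNK_KO, grouped by their labels. The authors trimmed single-end reads from Illumina TruSeq libraries and sampled reads to a stated average number per library. They mapped them to mm10 with TopHat2 2.0.14 and Bowtie2, and estimated expression with Cufflinks 2.2.1. The relative depths estimated from the deposited values, given below, were not equal. The deposited values were FPKM, 1 per gene and library. The gene annotation they used and the library strandedness are not given in the sources used here. Cufflinks splits shared reads between overlapping genes by an estimate, so values of such genes can trade reads.

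Of 38741 rows, 27 whose symbols had become calendar dates and 1 without a value were left out. Genes at 1 FPKM or more in at least 2 libraries were tested with limma 3.58.1 under R 4.3.3 (lmFit and eBayes, with a trend of variance on intensity), on log2(FPKM + 1), two-sided, with Benjamini-Hochberg adjustment. The procedure was tested on simulated data. The pseudocount of 1 compresses differences of low genes. No confidence interval from reads was computed, since FPKM keep no exact count. The size of the steps between low values, each worth 1 read, gave depths relative to JNK_KO line 1 of 1.06, 1.29 and 1.51 for JNK_WT lines 1 and 2 and JNK_KO line 3, from which the approximate reads were taken.

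The members and all gene lists were chosen with earlier results of these data known. Genes named are the members, the 10 genes nearest to Dcn and the 3 nearest to Prelp, Bgn and Ogn by Euclidean distance (genes with under 200 exon bases left out, where the annotation gave a length), the 3 largest absolute differences in each list, genes needed for a marker check, and coding genes within 500 kb of a member. Any other gene is said to be chosen after its values were seen. Positions came from GENCODE M21 on GRCm38 by symbol. Promoter sequences came from a set of RefSeq promoters on GRCm38.p6, which held 6 of the 8 members and not Dcn or Lum. Other pseudocounts, scalings, filters, variance models and fits without each line were run as alternatives. Python 3.11.15, pandas 2.3.3 and matplotlib 3.10.9 served for tables and figures.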

Additional observations from a re-analysis of the deposited data

How the results depend on the processing

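No gene was called in the test as described, and 0 were called in each fit without 1 line, under both other scalings, without a filter, with a mean of at least 5 FPKM and with a robust variance fit. The number was 10 (9 higher in JNK_KO) with a pseudocount of 0.1, 14 (11 higher) with 0.5 and 14 (10 higher) without the intensity trend. The log2 difference of Dcn was 7.80 with a pseudocount of 0.1 and 6.97 with 0.5, and that of Prelp was 5.004 and 3.95, since a smaller pseudocount compresses low values less. Under quantile normalization they were 6.12 and 3.03. Leaving out 1 line at a time gave 5.84 to 6.85 for Dcn and 2.93 to 3.67 for Prelp. For Bgn this gave −4.29 to 1.05, reversed at 1.05 without JNK_WT line 1. For Ogn it gave −1.46 to 1.20, reversed without JNK_WT line 1 (1.20) and without JNK_KO line 3 (1.02). For Epyc it gave −0.00957 to 0.0307, reversed without JNK_KO line 1 (−0.00957). The number of members with both JNK_KO lines above JNK_WT was 2. It was 3 (with Fmod) when members under the filter were counted, where 4620 of all 38713 genes had this order. With 1 line left out it ran from 2 to 4, being 4 without JNK_WT line 1, when Bgn and Ogn joined Dcn and Prelp. A single JNK_WT library then remained, and 4720 of 12998 tested genes had this order, against 2383 with all lines. Nothing is read from these counts. No paired analysis was possible because a single number, 1, occurs in both groups, and the labels tie it to no common animal, litter or day. With 1 tumor per library and 2 lines per group, p-values set the group difference against the spread between lines. The limma fit draws the variance of each gene toward a trend over all tested genes. Levels under about 0.05 FPKM rest on a few reads.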
